A study of Mus musculus and Homo sapiens with 90 samples.

Results

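Among the sequences tested in a massively parallel reporter assay (MPRA), 728 regions raised reporter RNA in the human liver cancer line HepG2 while staying near or below the negative controls in both conventional and germ-free mouse liver. They were chosen from 46150 test regions that the tables of HepG2, conventional and germ-free liver of a sub-library all listed with at least 50 DNA counts on average. These were part of 48346 test regions listed in all 3 tables and of 103435 in the series, each sub-library counted apart. Activity is the log2 ratio of mean RNA to mean DNA, each as CPM, counts scaled to the library total, plus a pseudocount of 1, minus the median of that ratio over the negative controls of the same table. A member had an activity of at least 1.5 in HepG2, which is 2.83 times the control ratio, and under 0.5, or 1.41 times, in each liver. These values chose the members, so HepG2 and liver activities are given as descriptions. The members made up 1.58% of the eligible test regions and 8.28% of the 8792 that reached the HepG2 threshold.

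In an MPRA, many short candidate sequences are placed in a reporter plasmid and introduced together, and the RNA made from each is read against the DNA present. Enhancers and promoters act by binding transcription factors, and the set of factors differs between cell types, so one sequence can drive a reporter in one cell and not in another. HepG2 is a proliferating hepatoma line that keeps many hepatocyte features, whereas hepatocytes in the liver are mostly quiescent. The comparison sets a human cell line against mouse tissue, so species, transformation and culture differ together and cannot be told apart.

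The HepG2 libraries carry the genotype p53-WT. Both livers are of C57BL/6 mice, conventional where no treatment is given and otherwise labelled germ-free, that is, raised without microbes. Age, how the reporter reached the liver, and whether tissue of several animals was pooled are not given in the labels. Sub-library 2 was also measured in libraries titled Hep3B, with the genotype p53-null. The source and cell line of these libraries are entered as HepG2; they are called Hep3B here after their titles. HepG2 had 14 RNA libraries (2 for sub-library 1, otherwise 3 each) and 1 DNA library per sub-library. Conventional liver had 15 RNA and 15 DNA libraries, germ-free liver 15 and 15, and Hep3B 2 and 1. Nothing in the labels says that replicates were separate cultures or animals. The p-values therefore reflect library-to-library spread, which may be technical. The reporter tables hold no cellular genes, so the labelled cells could not be checked against marker genes.

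HepG2 libraries held 1720314 to 8202279 RNA counts and 3075432 to 8091318 DNA counts. Conventional livers held 1172822 to 6627375 RNA and 2507261 to 6381704 DNA counts, and germ-free livers 2740171 to 25625463 RNA and 4028092 to 9897059 DNA counts. The Hep3B libraries held 9394679 and 17696987 RNA counts and 1700473 DNA counts. Across eligible regions, activities of pairs of RNA libraries of one table correlated with r of 0.79 to 0.99 (HepG2), 0.70 to 0.95 (conventional) and 0.67 to 0.95 (germ-free). Both libraries of a pair are read over the same mean DNA, which can raise r, so r is not a measure of RNA agreement alone. The lowest conventional value, 0.70, was that of the 2 libraries of sub-library 2. The smallest RNA count listed was 10, so a region with less RNA in a library is absent from the rule. Of 11247 HepG2-active regions with enough HepG2 DNA, 205 were listed in neither liver, 1276 were missing from conventional liver alone and 907 from germ-free liver alone. Of the 1276, 1053 lay in sub-library 2.

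By name, 723 members carried the prefix EH38D, used by the ENCODE registry for human accessible sites, and 5 carried EM10D, its prefix for mouse sites. None of the 5 eligible Peak_ regions met the rule. The files pair the names with neither genes, coordinates nor sequences, and the 728 members could not be placed in the genome here.

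The members were spread over all 5 sub-libraries, with 214, 95, 196, 178 and 45 in sub-libraries 1 to 5. The shares of eligible regions were 1.70% in sub-library 1, 2.25% in 2, 2.5% in 3, 1.68% in 4 and 0.414% in 5. Negative controls, nearly all of them named as stretches of yeast genes, met the same thresholds in 27 of 3184 eligible readings, or 0.848%. By sub-library the control share was 0.561%, 1.49%, 1.37%, 0.698% and 0.921%, so in sub-library 5 controls met the thresholds more often than test regions did, and in the other sub-libraries less often; this difference was not tested. The 27 control readings came from 20 names, and 6 of these names met the thresholds in more than 1 sub-library. The same 20 names had 32 further eligible readings, of which 9 were HepG2-active and 13 were under 0.5 in both livers. HepG2 activity of the 27 was 1.51 to 2.46 with a median of 1.68, and 2 of the 27 reached 2. The control share is the level of this pattern in sequences not chosen for regulatory activity.

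HepG2 activity of the members ran from the threshold to 5.34 with a median of 1.85 and quartiles of 1.64 and 2.18. Most lay close to the threshold: 268 reached an activity of 2, 26 reached 3, 5 reached 4 and 1 reached 5. Conventional liver activity had a median of -0.07, with quartiles of -0.44 and 0.22 and a lowest value of -2.40. Germ-free liver activity had a median of -0.19, with quartiles of -0.71 and 0.18 and a lowest value of -3.97. In 273 members both livers lay below the control median. Over all eligible regions the medians were 0.45 (HepG2), 0.33 (conventional) and 0.72 (germ-free). Which regions were members depended on the negative controls: centred on the median of all regions of a table instead, 776 regions met the thresholds, and 438 of the 728 were among them.

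**Figure D1:**
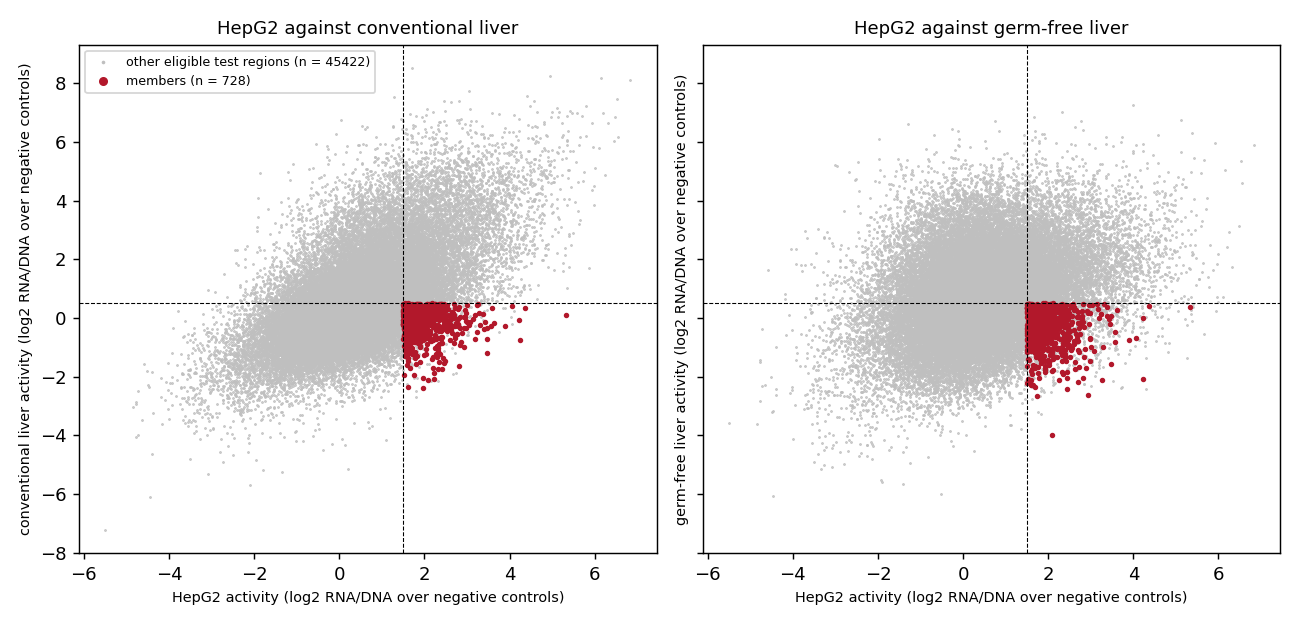
HepG2 activity (horizontal) against conventional liver (left) and germ-free liver (right) for the 46150 eligible test regions, on the log2 scale relative to negative controls, with dashed lines at the thresholds of 1.5 and 0.5. The 728 members (red) fill the lower right corner and thin out quickly above a HepG2 activity of 3, which 26 of them reached.

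Seen library by library, the groups were nearly separate. In 721 of 728 members every HepG2 RNA library lay above every library of both livers, against 14.5% of all eligible regions; the rule used these values, so nothing is read from that share. The 7 members with overlap were EH38D5257311, EH38D4433352 and EH38D5427406 of sub-library 1, EH38D6015670, EH38D5993013 and EH38D5880565 of sub-library 3 and EH38D5372411 of sub-library 5. Every HepG2 library reached 1.5 in 509 of the 728 members. It did so in 6889 of the 46150 eligible regions and in 6380 of the 8064 HepG2-active regions that were not members. Every library of both livers stayed under 0.5 in 325 members, and in 9456 of all eligible regions. The rule used these values too, so nothing is read from these counts. In 1 member, EH38D5290590 of sub-library 1, a germ-free library reached 1.5, at 1.54, while its other germ-free libraries read -1.10 and -0.30. The median SD between RNA libraries of a member was 0.16 for HepG2, 0.47 for conventional and 0.54 for germ-free liver. Over all eligible regions it was 0.27, 0.42 and 0.47. These SDs hold the spread of RNA alone, because all RNA libraries of a table are read over the same mean DNA. Spread of the single HepG2 DNA library is not in them, so they do not show which side is more precise. Median RNA counts per member were 343 (HepG2), 91.6 (conventional) and 176 (germ-free).

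The strongest member was EH38D3927916 of sub-library 2. Its 3 HepG2 libraries held 3648, 7359 and 8262 RNA counts over 263 DNA counts, for activities of 5.38, 5.32 and 5.31. Conventional liver gave 112 and 101 RNA counts over 507 and 441 DNA counts, with activities of -0.13 and 0.29. Germ-free liver read 0.99, -0.27 and 0.16. No liver library came within 4.33 of the lowest HepG2 library, the widest gap of any member.

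EH38D4725198 of sub-library 4 had the next widest gap, 4.05. HepG2 activities were 4.07, 4.32 and 4.31, from 1397, 3603 and 2503 RNA counts over 152 DNA counts. Conventional liver read -1.62, -1.84, 0.02 and -0.39, and germ-free liver read -1.82, -1.85 and -2.76. All 3 germ-free libraries lay below 3 of the 4 conventional ones, and both livers lay mostly under the controls.

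EH38D2529510, also of sub-library 4, was moderate in HepG2, at 2.86, 2.69 and 2.91, and, after EH38D3696897, the lowest of all members over both livers. Conventional liver gave -1.83, -1.96, -1.39 and -1.46 from 33 to 42 RNA counts a library. Germ-free liver gave -3.84, -2.22 and -1.17, with 13, 81 and 197 RNA counts, so its germ-free libraries spread widely at low counts. EH38D4522870 of sub-library 3 completed the 4 widest gaps, with 3.58, 3.37 and 3.47 in HepG2, -0.33 and -0.34 in conventional liver and -1.81, -2.36 and -0.91 in germ-free liver.

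The other members with the 2 highest HepG2 activities of a sub-library differed among themselves in how far their liver libraries spread. EH38D5541266 of sub-library 2 read 4.36, 4.42 and 4.34 in HepG2, but its 2 conventional libraries disagreed, at -1.26 and 1.07, around a pooled activity of 0.33. Germ-free liver was tighter for it, at 0.20, 0.58 and 0.43. EH38D2844520 of sub-library 4 read 3.99, 4.08 and 4.11 in HepG2, 0.05, 0.16, 0.91 and 0.34 in conventional liver, and -1.71, -0.82 and -0.03 in germ-free liver. In sub-library 1, EH38D5274359 reached 3.62 in HepG2 and EH38D4371173 reached 3.56, the latter with 4 conventional libraries between -0.37 and -0.18, and in sub-library 3, EH38D5937839 reached 3.58. Sub-library 5 peaked lowest, with 3.14 for EH38D5074863 and 3.04 for EH38D5149019. EH38D5074863 had germ-free libraries at -0.28, 1.31 and -0.16, so 1 of the 3 lay clearly above the threshold that the pooled value of 0.48 met.

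**Figure D2:**
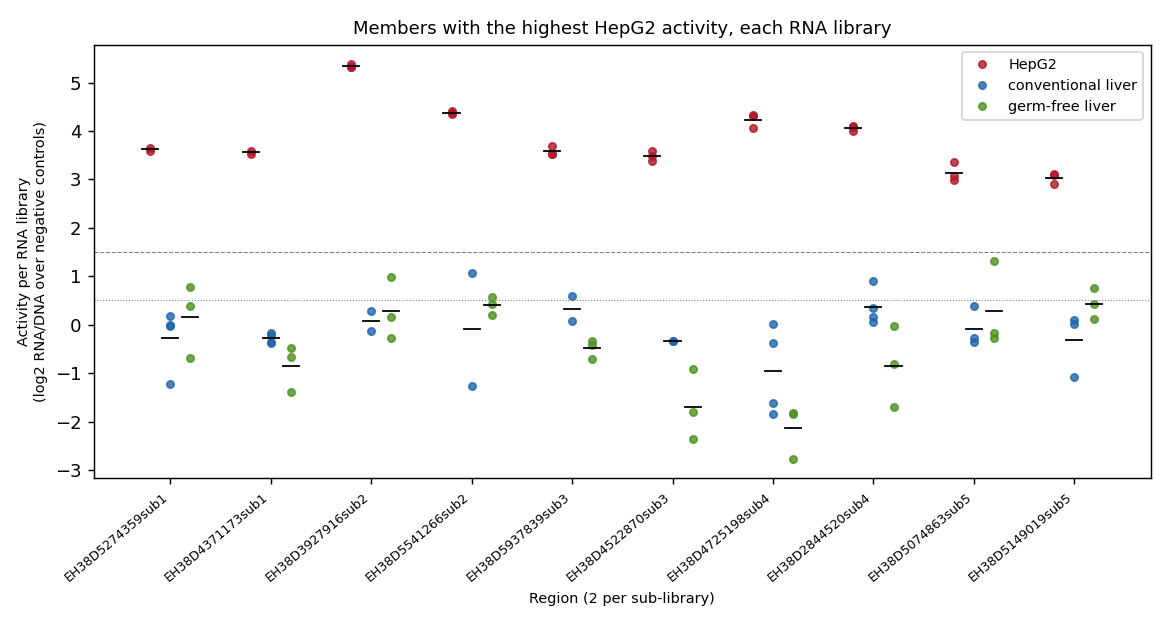
Activity in each RNA library (points, log2 over negative controls) for the 2 members of highest HepG2 activity in each sub-library, with the mean of each group as a bar and dashed and dotted lines at 1.5 and 0.5. HepG2 libraries of a region lie close together, all at 2.90 or above, while liver libraries spread more, as in EH38D5541266 with conventional libraries at -1.26 and 1.07.

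Regions at the edges of the rule differed little from those it left out. Just inside the HepG2 threshold were EH38D5372411 of sub-library 5 at 1.501 and EH38D4643741 of sub-library 4 at 1.502, and just outside were EH38D2334700 and EH38D5974497 of sub-library 3, both at 1.499. At the conventional liver threshold, EH38D5880565 and EH38D4797516 were inside at 0.498, and EH38D4756120 and EH38D6039016 outside at 0.502 and 0.508. At the germ-free threshold, EH38D4740580 and EH38D3273999 were inside at 0.499 and 0.498, and EH38D4422277 and EH38D2273534 outside at 0.501 and 0.502. The HepG2 libraries of EH38D5372411 read 1.76, 1.66 and 0.95, a spread far wider than its distance to the threshold.

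HepG2 DNA, the denominator of the activity, was compared because a low value raises the ratio. DNA CPM of the members was lower in HepG2 than in both livers in 73.9%, against 51.4% of all eligible regions. Within sub-libraries 1 to 5 the members' share was 68.7%, 41.1%, 94.9%, 92.1% and 4.44%, against 51.3%, 27.5%, 91.0%, 78.5% and 5.94% of all eligible regions, so the pooled gap was wider than that within any sub-library. In sub-library 2 the median log2 difference in DNA CPM, HepG2 minus conventional liver, was -1.98 for the members and -2.0 for all eligible regions. The members' median stood farthest from that of all regions in sub-library 4, at -0.39 against -0.24 relative to conventional liver and -0.66 against -0.44 relative to germ-free liver. DNA is part of the values that the rule used, so nothing is read from these shares and medians. The part of DNA in the activities was not tested. In 3 members HepG2 DNA was at least 2-fold lower than in both livers.

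Replicates left out of the choice gave values that the choice had not used. When the members were chosen again without the HepG2 RNA library numbered 1, 2 or 3, the left-out library reached 1.5 in 68.4%, 73.2% and 80.1% of the regions chosen, with medians of 1.78, 1.86 and 1.82. All eligible regions did so in 20.0%, 20.5% and 19.0%. Sub-library 1, with 2 HepG2 RNA libraries, was the weakest, at 58.2% and 49.1%. The HepG2 DNA library was the same in both readings, so the RNA alone was new.

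On the liver side the shares were about as high, but stood less far above those of all eligible regions. More of all eligible regions lie under 0.5 in a liver library than reach 1.5 in a HepG2 library, so the distances are not alike. A left-out conventional library with its own DNA stayed under 0.5 in 71.6%, 69.6%, 74.0% and 85.4% of the regions chosen without the number 1, 2, 3 or 4, against 54.1%, 53.6%, 53.8% and 58.6% of all eligible regions. For germ-free numbers 1, 2 and 3 the shares were 72.4%, 77.3% and 83.3%, against 41.7%, 43.3% and 45.2%. In 2 tables the share under 0.5 in the left-out conventional library was close to that of all eligible regions, at 46.2% against 45.5% for number 2 of sub-library 2 and 52.3% against 52.5% for number 1 of sub-library 5. In the same libraries fewer of the chosen regions reached 1.5, at 22.7% against 34.8% and 0 of 44 against 24.9%. Conventional liver had 2 RNA libraries in sub-library 2 and 3 in sub-library 5. Without sub-library 2 there were 633 members, and without sub-library 5 there were 683.

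**Figure D3:**
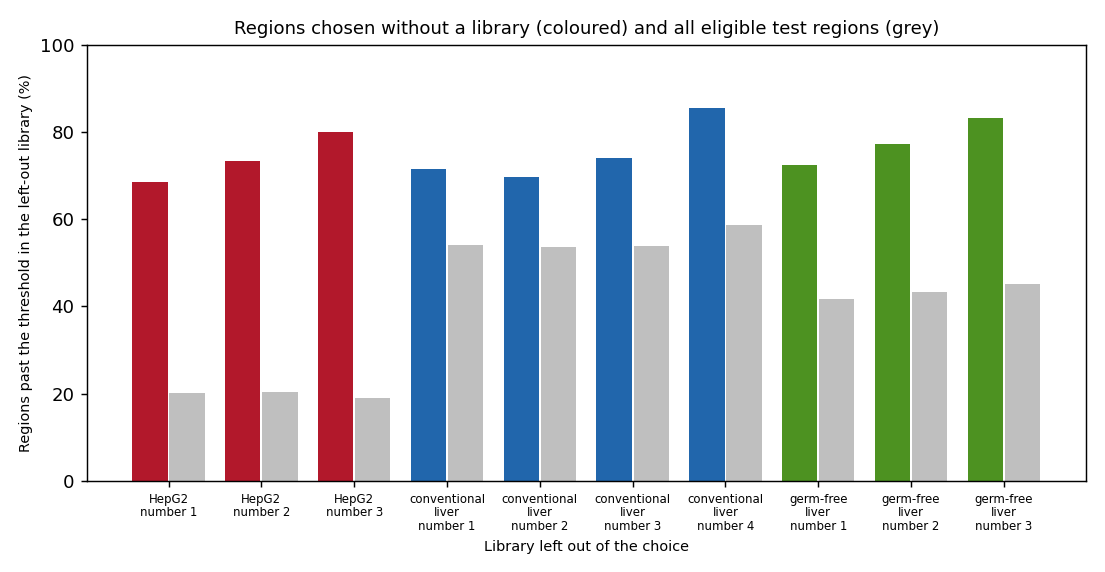
Share of regions (percent, vertical) past the threshold in a library that took no part in choosing them, at least 1.5 for HepG2 (red) and under 0.5 for conventional (blue) and germ-free liver (green), beside the same share of all eligible test regions (grey). The coloured bars stand 68.4% to 85.4% high and each exceeds its grey neighbour, by most in HepG2.

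Fits across all regions of a sub-library gave calls for single members with edgeR's quasi-likelihood test and Benjamini-Hochberg adjustment at 0.05. RNA over DNA was called higher in HepG2 than in conventional liver for 408 members, or 56.0% of the 728, where 5.42% of all 48337 test regions were called. HepG2 was called higher than germ-free liver for 572, or 78.6%, where 15.4% of all test regions were called. Fits on library sizes without composition scaling gave 642 in place of 408, and DESeq2 gave 534. HepG2 RNA over DNA itself was called above 0, on the fit's scale, in 372 members, or 51.1%, where 15.6% of all test regions were. Conventional liver was called below 0 in 207, or 28.4%, and germ-free liver in 397, or 54.5%, where 24.7% and 26.6% of all test regions were. HepG2 had 1 DNA library a sub-library, so its RNA libraries and the other groups supply the spread for that side. The rule used these contrasts, so nothing is read from these counts.

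Germ-free liver was called above conventional liver in 17 members and below it in 117, where 18.3% and 22.2% of all test regions were called. The rule held both livers under 0.5, so nothing is read from the members' counts. The count of 17 moved to 27 with scaling on negative controls, 66 on library sizes alone, 10 without germ-free number 2 and 35 without conventional number 2, and the count of 117 moved to 47 on library sizes alone. EH38D5599664 of sub-library 2 stood highest on this difference, with germ-free libraries at 0.50, 0.19 and 0.53 and conventional libraries at -2.19 and -1.96. EH38D3643654 of the same sub-library read 0.01, -0.29 and 0.26 in germ-free and -1.90 and -2.98 in conventional liver. At the other end, EH38D5844253 of sub-library 3 had germ-free libraries at -2.28, -2.05 and -3.12 and conventional ones at 0.59 and -0.24, and EH38D5586873 of sub-library 2 read -2.07, -2.78 and -1.95 against 0.34 and 0.57. In these 4 regions the libraries of the 2 livers did not overlap. They were named for the extremes of this difference, so nothing is read from that.

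Hep3B, which the rule did not use, gave a second human reading for the 95 members of sub-library 2. Their median Hep3B activity was 1.45, with quartiles of 0.73 and 2.16 and a range of -2.63 to 4.75. RNA was called above DNA in 69 members, or 72.6%, and below it in 7, where 21.5% and 14.2% of all 19768 test regions were called. Hep3B had 2 RNA libraries and 1 DNA library, so the DNA side has no spread of its own; the fit takes it from the RNA libraries of both lines and assumes the DNA library to vary alike. Standard errors and p-values given for Hep3B rest on that assumption. Among the 4202 eligible regions of that sub-library read in Hep3B the median was 0.61 and 39.5% were called higher. HepG2-active regions that were not members had a median of 1.93 and 79.6% called higher, and those also at or above 0.5 in both livers had a median of 2.19 and 84.7%. Eligible regions under 0.5 in HepG2 had a median of -0.31 and 7.16%. The sets also differed in HepG2, with median activities of 1.97 for the members and 2.26 for the other HepG2-active regions. For those also at or above 0.5 in both livers the HepG2 median was 2.33. The part of that difference in the Hep3B order was not tested. In Hep3B 42 members, or 44.2%, also reached 1.5.

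The conventional liver values that placed these 95 regions are those of the left-out comparison above, from 2 libraries of sub-library 2. Chosen without conventional number 1, 84 regions were members and 55 of them were called higher; without number 2, 119 were members and 89 were called higher. Hep3B DNA was also thin, with a median of 70 counts and a range of 10 to 1537 over the members. Among the 64 members with at least 50 Hep3B DNA counts, 45 (70.3%) were called higher and 7 (10.9%) lower, with a median of 1.31. Of all 2069 eligible regions with as many Hep3B DNA counts, 32.8% were called higher and 27.0% lower, with a median of 0.20.

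**Figure D4:**
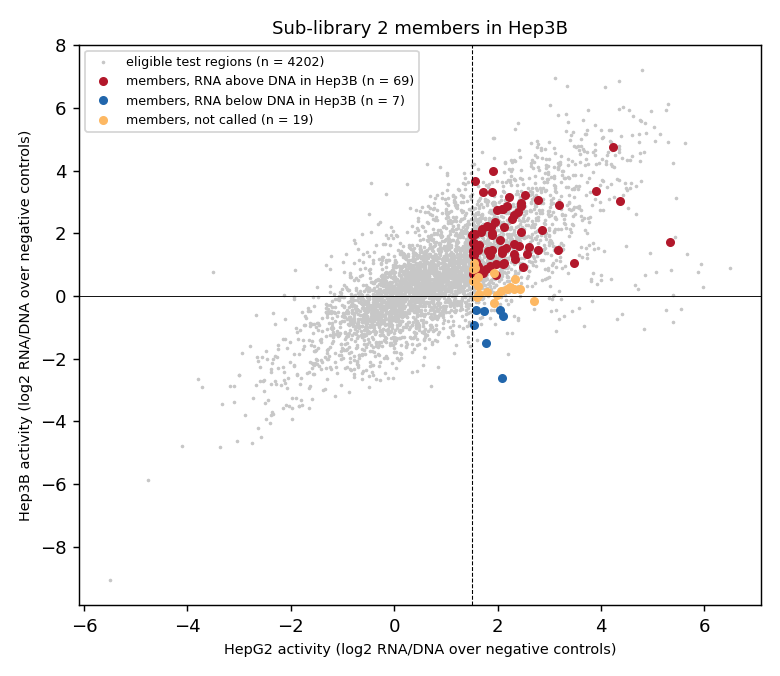
Hep3B activity (vertical) against HepG2 activity (horizontal), both log2 over negative controls, for the 4202 eligible test regions of sub-library 2 read in Hep3B (grey) and its 95 members, coloured by the edgeR call of Hep3B RNA against DNA at an adjusted p of 0.05. Most members lie above 0 in Hep3B (69 called higher), and EH38D3696897, at -2.63, stands lowest.

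Named by their Hep3B level among members with at least 50 Hep3B DNA counts, the highest was EH38D5601805, at 3.60 and 3.74 in the 2 Hep3B libraries. Its HepG2 libraries read 1.64, 1.58 and 1.48, so it was near the HepG2 threshold and far above it in Hep3B. The fitted Hep3B log2 ratio of RNA to DNA was 3.59 ± 0.16 (SE; edgeR adjusted p = 1.3e-06). EH38D5767715 had the same form, with 3.29 and 3.32 in Hep3B against 1.51, 1.88 and 1.74 in HepG2 (Hep3B fit 3.22 ± 0.19, SE; edgeR adjusted p = 7.2e-06). EH38D5756383 was high in both lines, at 3.34 and 3.37 in Hep3B and 3.93, 3.92 and 3.86 in HepG2 (Hep3B fit 3.25 ± 0.10, SE; edgeR adjusted p = 3.4e-07), although its conventional libraries read -3.00 and 0.63. EH38D5475971 read 3.20 and 3.26 in Hep3B and 2.56, 2.44 and 2.60 in HepG2. The strongest HepG2 member, EH38D3927916, was active in Hep3B too but far less, at 1.68 and 1.75 against 5.31 to 5.38 (Hep3B fit 1.62 ± 0.12, SE; edgeR adjusted p = 2.2e-05).

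Lowest in Hep3B was EH38D3696897, which was also the lowest member over both livers. Its HepG2 libraries read 1.84, 2.22 and 2.18, from 3756, 10237 and 11214 RNA counts over 3213 DNA counts. Hep3B read -2.40 and -2.89 over 1537 DNA counts, conventional liver -4.12 and -1.31, and germ-free liver -3.17, -6.15 and -3.93. HepG2 alone was above the controls, and the Hep3B log2 ratio of -2.75 ± 0.21 (SE) had an edgeR adjusted p of 2.6e-05. EH38D5619000 followed the same order, with 1.53, 1.79 and 1.96 in HepG2 and -1.24 and -1.82 in Hep3B (fit -1.64 ± 0.27, SE; edgeR adjusted p = 0.0023). EH38D3696897 and EH38D5619000 were called lower in each of the 14 fits run. With scaling on negative controls, the other 5 of the 7 lower calls were lost. Among those, EH38D5599060 read -0.91 and -0.92 in Hep3B (edgeR adjusted p = 0.00097, and 0.067 with scaling on negative controls), and EH38D5462664 read -0.67 and -0.59 (0.00044, and 0.23).

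Set directly against HepG2, Hep3B was called higher in 6 of the 95 members and lower in 37, where 5.51% and 5.94% of all test regions were called. HepG2 values chose the members, so nothing is read from this imbalance.

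The EM10D names could be followed further, because the same name was listed in several sub-libraries. Of 72 eligible EM10D readings from 29 names, 5 readings of 4 names met the rule: EM10D2199384 in sub-libraries 3 and 4, EM10D2895960 in 3, EM10D2895961 in 1 and EM10D2955769 in 4. In the 15 HepG2 readings of these names that were not members, activity ran from 0.68 to 2.54 with a median of 1.78, and 10 of 15 reached 1.5. Conventional liver, in 8 such readings, gave 0.07 to 0.84, and 5 were under 0.5. Germ-free liver, in 13 readings, gave -1.18 to 2.01 with a median of 1.12, and 1 was under 0.5. Readings that met the rule are left out of these counts, so the counts depend on the rule and nothing is read from them.

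For EM10D2199384, HepG2 read 1.84, 1.84, 2.45, 2.34 and 1.65 in sub-libraries 1 to 5. Germ-free liver read 1.00, 1.12, -0.32, 0.23 and 1.65 in the same order, so its 2 member readings were the highest 2 in HepG2 and the lowest 2 in germ-free liver. EM10D2895960 read 2.21, 2.54, 2.47, 1.60 and 1.78 in HepG2 and 1.72, 1.30, 0.28, 0.83 and 1.87 in germ-free liver. In conventional liver EM10D2895960 read 0.84, 0.10, 0.24 and 0.50 in sub-libraries 1, 3, 4 and 5. In sub-library 1, where it was not a member, its HepG2 RNA was 1.73 ± 0.34 (SE) above DNA on the fit's log2 scale (edgeR adjusted p = 0.00077), and HepG2 exceeded conventional liver by 1.21 ± 0.38 (SE; edgeR adjusted p = 0.031) and germ-free liver by 0.48 ± 0.38 (SE; edgeR adjusted p = 0.36).

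EM10D2955769 read 2.31, 2.16, 0.96, 2.04 and 0.68 in HepG2, the widest range of the 4 names. In sub-library 1 HepG2 exceeded conventional liver by 1.66 ± 0.39 (SE; edgeR adjusted p = 0.0057) and germ-free liver by 1.57 ± 0.40 (SE; edgeR adjusted p = 0.0055), with germ-free activity at 0.74. In sub-library 5 the activities read 0.68 in HepG2 and 2.01 in germ-free liver. The fitted difference there, HepG2 minus germ-free liver, was -0.28 ± 0.49 (SE; edgeR adjusted p = 0.70), so no turned order was called. EM10D2895961 read 1.95, 1.35, 1.87, 1.37 and 1.40 in HepG2, and -0.28, 0.72, -1.18 and 0.91 in germ-free liver in sub-libraries 1, 2, 4 and 5. Of the 4 non-member germ-free readings at 1.5 or more, 3 came from sub-library 5. Its germ-free control median, -1.66, was lower than the -1.03 to -0.60 of the other sub-libraries, and its HepG2 control median was -0.26. The control median is subtracted, so a lower one raises all activities of its table by the same amount. Why the germ-free control median of sub-library 5 was lower was not tested.

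In Hep3B, the same 4 names read 2.18, 1.62, 1.35 and 1.72 for EM10D2199384, EM10D2895960, EM10D2895961 and EM10D2955769. Each was called higher in RNA than DNA, where 21.5% of all test regions and 79.6% of HepG2-active non-members of sub-library 2 were. These 4 names were picked for HepG2 activity in other sub-libraries, so nothing is read from all being called. Their fitted log2 ratios were 2.15 ± 0.24, 1.53 ± 0.19, 1.28 ± 0.29 and 1.63 ± 0.20 (SE), with edgeR adjusted p-values of 0.00026, 0.00039, 0.010 and 0.00040. They rested on 22, 56, 26 and 76 counts of the single Hep3B DNA library, in the same order. EM10D2895961 was not called in 1 of its 13 fits, at an adjusted p of 0.051 by edgeR.

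**Figure D5:**
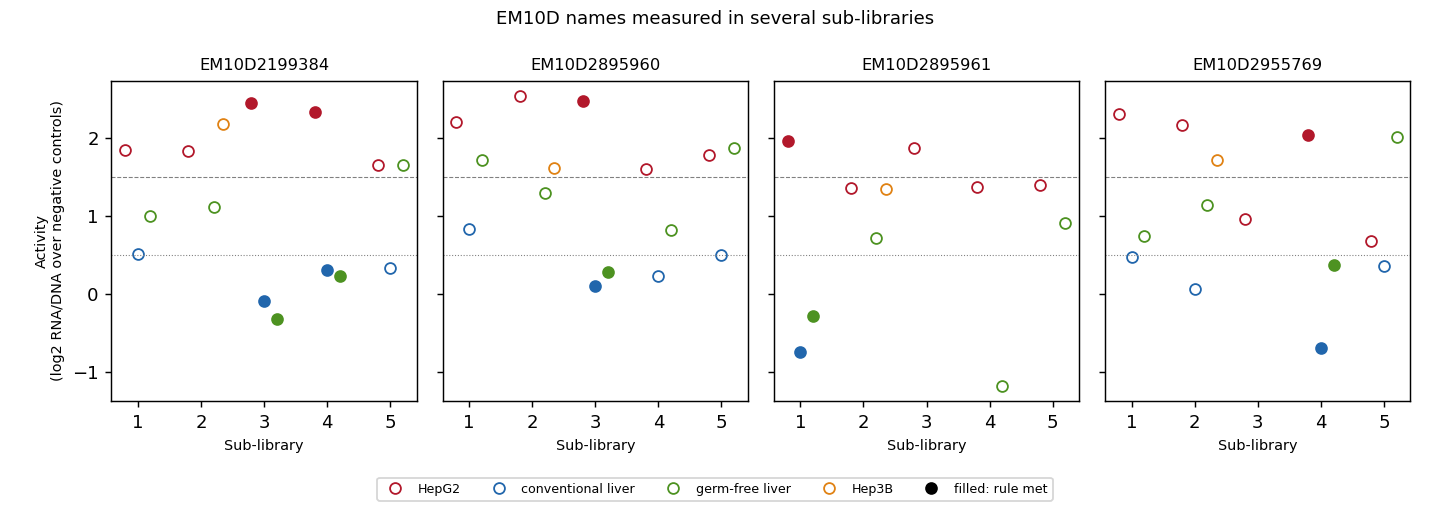
Activity (vertical, log2 over negative controls) of 4 EM10D names in each sub-library (horizontal) in HepG2, conventional liver, germ-free liver and Hep3B, with filled points where the rule was met and dashed and dotted lines at 1.5 and 0.5. Germ-free points outside the filled ones lie at 0.72 or above in 12 of 13 readings, the exception being EM10D2895961 in sub-library 4 at -1.18.

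Regions with consecutive registry numbers were compared, though the files do not say whether they are neighbours. For 85 members an eligible region with the next or previous number was present in the same sub-library. Those neighbours had median activities of 0.61 in HepG2, 0.26 in conventional and 0.34 in germ-free liver. Over all eligible regions the medians were 0.45, 0.33 and 0.72. Of 85 non-member neighbours 11, or 12.9%, were HepG2-active, against 19.1% of all eligible regions. The first share leaves out neighbours that were members and the second includes all members, so the 2 are not alike and nothing is read from them. In 1 pair both were members, EH38D5963719 and EH38D5963720 of sub-library 3. EH38D5963719 read 1.56, 2.06 and 2.39 in HepG2, -0.58 and 0.58 in conventional liver and -1.70, -1.77 and 0.42 in germ-free liver. EH38D5963720 read 2.33, 2.25 and 2.36 in HepG2, -0.79 and -1.30 in conventional liver and -0.88, -2.73 and -0.26 in germ-free liver. In neither region did HepG2 libraries overlap those of either liver, as in 721 of the 728 members.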

How the data were processed

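The authors' deposited tables hold raw counts for each region in each library, not normalized, aligned with BWA to hg38 per the submitters' processing notes, which also name DESeq2 1.42.1 and edgeR 4.0.16. Whether counts were collapsed by molecular identifier is not given in the sources used here. PCR reads are not independent molecules. Germ-free sub-library 3 columns were matched by library name, because header replicate numbers differ from the titles. The RNA-seq tables of the series were not used.

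Activities were computed from CPM as described above, with Python 3.11.15. The members and the rules for naming regions were chosen with earlier results of these data known. Regions are named by the highest HepG2 activity per sub-library, the widest gap to the livers, the extremes in Hep3B and between the livers, the EM10D prefix, the thresholds, repeats and consecutive numbers. EH38D5290590 and the 7 overlapping members were named after their values were seen. Tests used edgeR 4.0.16 (R 4.3.3) on the counts of each sub-library for regions averaging 10 or more DNA counts, TMM scaling and one term for each system and molecule, with p-values adjusted over all regions and sub-libraries of a contrast. DESeq2 1.42.0 and other scalings, filters, pseudocounts, thresholds and left-out replicates were alternatives.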

Additional observations from a re-analysis of the deposited data

Results flagged for a closer look

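Among the 14 groups of 4 conventional liver libraries tested for a lone distant value, 3 had one. Chance gives about 1 in 20 in groups picked without regard to their values. The rule and part of the naming used these liver values, so nothing is read from the count. EH38D4797516 of sub-library 4 had its highest conventional library at 0.76, EH38D5274359 of sub-library 1 its lowest at -1.22, and EM10D2955769 of sub-library 4 its lowest at -1.09. Each of these 3 regions read 1.99 or more in every HepG2 library.

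Between groups, 6 members were called higher and 37 lower in Hep3B than in HepG2, and 17 were called higher and 117 lower in germ-free than in conventional liver, by edgeR's test of the difference. The choice of members used HepG2 and both livers, so these imbalances are given as values alone.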

How the results depend on the processing

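The number of members was 268 with a HepG2 threshold of 2 and 273 with a liver threshold of 0. It was 633 to 795 under the other settings, but a count does not say which regions: centring on all regions in place of the negative controls gave 776, of which 438 were among the 728. Leaving out single replicates gave 694 to 795, and 638 to 705 of these were among the 728. The median HepG2 activity in a left-out library was 1.78 to 1.86. Members called between the systems moved with scaling. On library sizes alone, 642 were higher in HepG2 than in conventional liver, 66 higher and 47 lower in germ-free than in conventional liver, and 11 higher in Hep3B than in HepG2. With TMM on negative controls these were 27 higher in germ-free liver, and 3 higher and 19 lower in Hep3B than in HepG2, with 2 lower in Hep3B RNA than DNA. Leaving out single replicates gave 10 to 35 higher and 102 to 131 lower in germ-free than in conventional liver. In Hep3B, 35 were higher and 3 lower with a HepG2 threshold of 2, of 45 members, and 4 were lower with a minimum DNA count of 50, of 64.

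Replicate numbers were checked as pairs, and the main fits did not pair the libraries. Same-numbered HepG2 and Hep3B libraries deviated with r of -0.42 and -0.23, and RNA and DNA libraries of one liver number with r of -0.05 to 0.04. In germ-free sub-libraries 1 and 5 each RNA library had its highest r with the DNA library of its own number, at 0.008 to 0.035. Values this small cannot say whether same-numbered liver libraries share an animal. With the replicate block, 4 members were called lower in Hep3B RNA than DNA, and 3 higher and 23 lower in Hep3B than in HepG2.

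Re-choosing the members for Hep3B and leaving out sub-libraries 2 and 5 were added after seeing the data. For single named regions 65 values moved by more than their spread, 58 of them with centring on all regions. That setting subtracts another constant from all regions of a table, so it shifts each of them by the same amount. The cause of the other shifts was not tested. Median RNA counts over all eligible regions were 122.7 (HepG2), 122.7 (conventional) and 350.7 (germ-free), and the single Hep3B DNA library had a median of 70 counts over the members.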
